A study of Mus musculus with 12 samples.

Results

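Neurotrophins and the receptor kinases that support neurons were represented on the panel by 6 of its 770 genes. They were taken by symbol, and all 6 were found. *Bdnf* and *Ntf3* encode secreted neurotrophins, *Ngfr* encodes the p75 receptor, and *Ntrk2*, *Ret* and *Alk* encode receptor tyrosine kinases.

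Neurotrophins are small dimeric proteins that keep developing neurons alive and guide the growth of their axons and dendrites. BDNF binds the kinase TrkB, the product of *Ntrk2*, and NT-3, the product of *Ntf3*, binds mainly TrkC. The p75 receptor has no kinase domain, binds all neurotrophins with lower affinity, modulates the Trk receptors and can also pass on signals for cell death. RET is the signaling receptor of the GDNF family and needs a GFRα co-receptor to bind its ligands. ALK is a receptor kinase of the developing nervous system that is mutated or amplified in some neuroblastomas. In the retina, BDNF and TrkB are known for the survival of ganglion cells. The Trk receptors, RET and ALK share downstream routes through Ras and ERK and through PI3K and Akt.

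Expression was measured in 5 *RBS* lesions, 4 control eyes and 3 Shh medulloblastomas (Shh-MBs), each from an individual mouse. *RBS* lesions were eyes of Rax-creERT2::Ctnnb1(ex3)Fl/+SmoM2Fl/+ embryos at E18.5, in which tamoxifen given to the mother at E8.5 activated Cre in cells that express the retinal precursor gene *Rax*. Cre removes exon 3 of *Ctnnb1*, which stabilizes β-catenin and activates Wnt signaling, and switches on SmoM2, an active form of the Shh receptor component Smo. Control eyes were also taken at E18.5 and carried both floxed alleles, Ctnnb1(ex3)Fl/+SmoM2Fl/+, without Cre. The labels tie tamoxifen only to the *RBS* eyes. Shh-MBs were hindbrain tumors of 14 day old hGFAP-cre::SmoM2Fl/+ mice, where Cre is driven by the human *GFAP* promoter and *Ctnnb1* is not altered. *RBS* lesions and Shh-MBs therefore differed in tissue, age, Cre driver, *Ctnnb1* allele and, by the labels, tamoxifen, and the parts of these in a difference cannot be told apart. By the labels *RBS* lesions and control eyes differed in both Cre and tamoxifen, whose parts cannot be told apart. RNA came from bulk tissue, so fewer cells of a type and less RNA per cell cannot be told apart either.

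The genes lie on 5 chromosomes. In the mouse build GRCm38.p6 of the RefSeq table, *Bdnf* spans chr2:109674700-109727043, *Ret* chr6:118151748-118197744, *Ntf3* chr6:126101412-126166772, *Ngfr* chr11:95568818-95587698, *Ntrk2* chr13:58806472-59133970 and *Alk* chr17:71868988-72604702. Promoter windows of 250 bases before a start site were given for 5 of the 6 genes, with 7 start sites for *Bdnf*, 2 for *Ntf3* and 1 each for *Ngfr*, *Ntrk2* and *Alk*. The windows of *Ngfr* (chr11:95587699-95587948, minus strand) and of the outermost *Bdnf* start (chr2:109674450-109674699, plus strand) are shown, as only these lie wholly outside the annotated span of their gene. Both sequences are from RefSeq, run 5′ to 3′ on the strand of the gene and have CpG pairs in capitals.
Ngfr: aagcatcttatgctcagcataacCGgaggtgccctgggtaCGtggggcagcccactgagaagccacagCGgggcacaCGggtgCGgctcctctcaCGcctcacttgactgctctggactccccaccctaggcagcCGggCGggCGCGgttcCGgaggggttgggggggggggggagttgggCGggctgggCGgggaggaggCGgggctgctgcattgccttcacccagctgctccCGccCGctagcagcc
Bdnf: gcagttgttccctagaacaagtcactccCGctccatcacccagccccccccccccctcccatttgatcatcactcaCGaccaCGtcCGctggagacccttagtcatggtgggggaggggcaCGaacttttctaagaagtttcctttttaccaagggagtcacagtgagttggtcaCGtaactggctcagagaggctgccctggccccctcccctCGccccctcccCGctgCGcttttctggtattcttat
The *Ngfr* window held 16 CpG pairs and 70.4% G and C. The outermost *Bdnf* window held 9 CpG pairs and 58.0% G and C, and the 7 *Bdnf* windows ranged from 1 to 13 CpG pairs. The median over 32851 windows of the table was 6 CpG pairs and 52.4% G and C, and *Ntrk2* and *Alk* had 19 and 23 CpG pairs. Both strands were searched for CTTTGA, the core of sites of the Wnt effectors Tcf and Lef, and for CCACCCA, the core of sites of the Shh effectors Gli, and neither of these motifs contains the other. CTTTGA was found once in the 12 windows, 193 bases before a start of *Ntf3*, and CCACCCA was found in none. Of all windows in the table, 13.8% held CTTTGA and 8.11% held CCACCCA. A match of letters is not a binding site, and its absence says only that these letters are not in the window.

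Values are a normalized signal on a linear scale, and differences were tested on log2 of the signal plus 1. Depth was between 335392 and 716684 counts above background per sample, lowest in *RBS* 1. The scale differed between groups: the median difference over all 770 genes was 0.17 on the log2 scale for *RBS* lesions against control eyes, 0.53 for *RBS* lesions against Shh-MBs and -0.22 for Shh-MBs against control eyes. None of 18 listed retina and lens markers is on the panel, so the eyes could not be checked by them. Of 9 cerebellar granule cell markers only *Zic2* is present, with a signal of 924 to 1142 in Shh-MBs, 223 to 347 in control eyes and 255 to 386 in *RBS* lesions. The summed signal of the 9 neuronal markers on the panel, of 25 listed, was 869 to 1178 in control eyes, 976 to 2439 in Shh-MBs and 3844 to 4996 in *RBS* lesions.

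The neurotrophic genes of *RBS* lesions differed from those of control eyes in both directions. *Alk* and *Ntrk2* were higher in the lesions, and *Ngfr*, *Ret* and *Bdnf* were lower, while *Ntf3* did not pass the test. Thus 5 of the 6 genes passed in this comparison (limma, adjusted *p* under 0.05), where 51.2% of all genes passed, and in the same 5 the groups did not overlap, as in 43.4% of all genes. Higher were 2, against 33.0% of all genes, and lower were 3, against 18.2%. Against Shh-MBs, *Alk* and *Bdnf* were higher in *RBS* lesions and *Ngfr* was lower, which makes 3 of 6 genes where 60.8% of all genes passed, and 3 without overlap, as in 59.9% of all genes. Shh-MBs had more *Ntrk2* and less *Bdnf* and *Ret* than control eyes, again 3 of 6, where 41.0% of all genes passed and 48.2% did not overlap. The 3 comparisons share samples in pairs, and their values are given side by side and not as independent results.

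**Figure D1:**
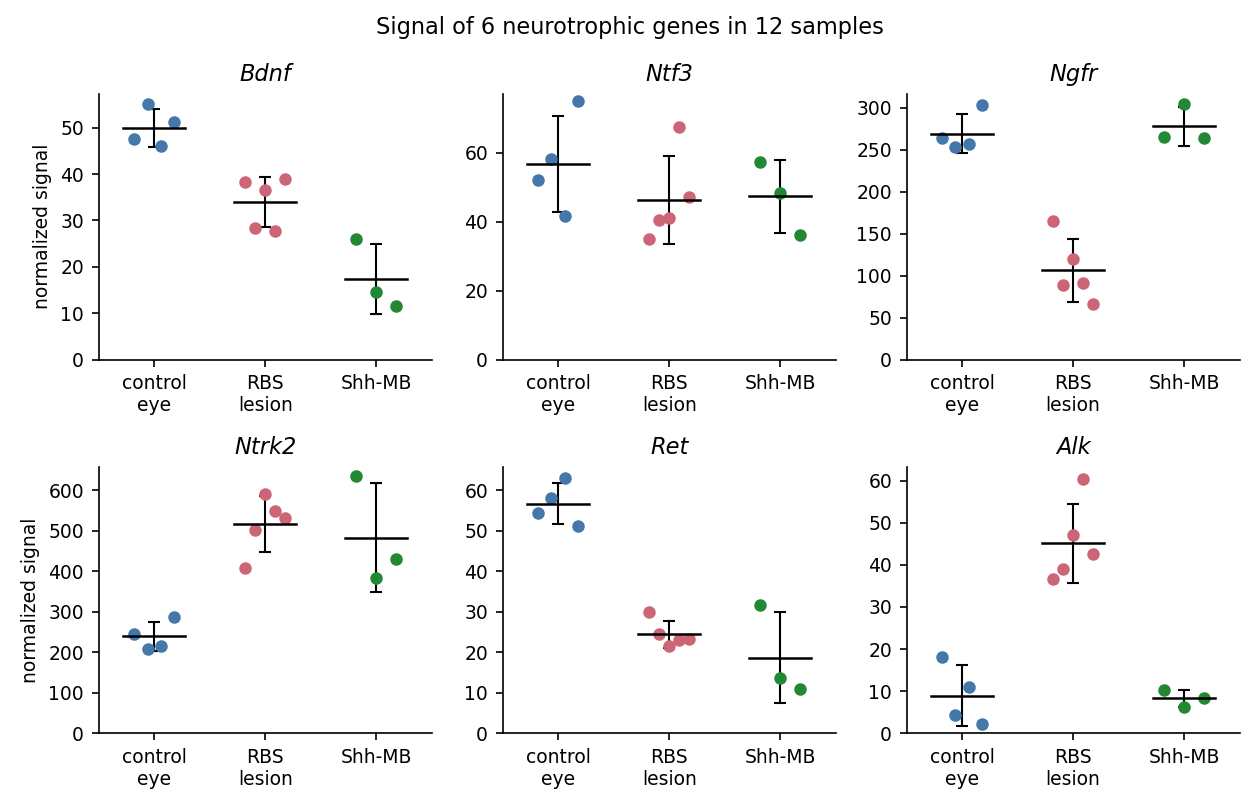
Normalized signal (linear axis from 0) of the 6 neurotrophic genes in every sample, as points in replicate order, with lines for the group mean and bars for the SD (4 control eyes, 5 *RBS* lesions, 3 Shh-MBs). *Ngfr* is low only in *RBS* lesions (66.3 to 165) and *Alk* high only there (36.6 to 60.3).

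*Bdnf*, the ligand of TrkB, was highest in control eyes, intermediate in *RBS* lesions and lowest in Shh-MBs. Its signal was 47.5, 55.1, 46.0 and 51.1 in control eyes 1 to 4, 38.2, 28.4, 36.5, 27.8 and 38.9 in *RBS* lesions 1 to 5, and 26.0, 14.6 and 11.7 in Shh-MBs 1 to 3. No group overlapped with another, and Shh-MB 1 lay just below the lowest *RBS* lesion. The group means were 49.9 ± 4.06 (SD, n = 4), 34.0 ± 5.42 (SD, n = 5) and 17.4 ± 7.59 (SD, n = 3).
*Bdnf* fell 1.47-fold from control eyes to *RBS* lesions (log2 difference -0.55, SE 0.13, adjusted *p* = 0.00630; exact permutation *p* = 0.00794, the smallest that 126 splits allow). Against Shh-MBs it was 1.98-fold higher in *RBS* lesions (log2 difference 0.99, SE 0.25, adjusted *p* = 0.00929; exact permutation *p* = 0.0179, the smallest that 56 splits allow). Shh-MBs had 2.91-fold less *Bdnf* than control eyes (log2 difference -1.54, SE 0.26, adjusted *p* = 0.00313; exact permutation *p* = 0.0286, the smallest that 35 splits allow). The higher level in *RBS* lesions than in Shh-MBs depended on the scaling of the samples. It was 0.62 (adjusted *p* = 0.0676) with totals taken without the 3 most abundant genes and 0.14 (adjusted *p* = 0.596) after centring each sample on its median and turned to -0.52 (adjusted *p* = 0.0268) after quantile normalization, and the latter also took the difference between Shh-MBs and control eyes to -0.26 (adjusted *p* = 0.290).

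*Ntf3*, which encodes NT-3, had similar ranges in all groups. Its signal was 52.2, 58.1, 41.8 and 75.1 in control eyes, 34.9, 40.6, 40.9, 67.6 and 47.1 in *RBS* lesions and 57.4, 48.3 and 36.3 in Shh-MBs. The highest values, control eye 4 and *RBS* 4, belonged to different groups, and every group overlapped with both others. Means were 56.8 ± 13.9 (SD, n = 4), 46.2 ± 12.7 (SD, n = 5) and 47.3 ± 10.6 (SD, n = 3). The log2 difference of *RBS* lesions was -0.30 against control eyes (95% interval -0.79 to 0.20, adjusted *p* = 0.295). Against Shh-MBs it was -0.05 (95% interval -0.59 to 0.50, adjusted *p* = 0.878), and that of Shh-MBs against control eyes was -0.25 (95% interval -0.82 to 0.32, adjusted *p* = 0.450). These intervals still allow changes of more than 1.5-fold, so the ligand cannot be called equal between groups. After centring each sample on its median, *Ntf3* passed as lower in *RBS* lesions than in Shh-MBs (log2 difference -0.89, adjusted *p* = 0.00718), where the median of all genes was -0.32. It also passed as lower there after quantile normalization (-1.20, adjusted *p* = 0.00327). Quantile normalization also turned the difference between Shh-MBs and control eyes to 0.65, which passed (adjusted *p* = 0.0431).

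*Ngfr*, the gene of the p75 receptor, was low in *RBS* lesions alone. Control eyes had a signal of 263, 253, 256 and 303, *RBS* lesions 165, 89.2, 119, 91.7 and 66.3, and Shh-MBs 265, 305 and 264. All *RBS* lesions lay below all other samples, with *RBS* 1 nearest to them, while control eyes and Shh-MBs covered nearly the same range. Means were 269 ± 23.3 (SD, n = 4), 106 ± 37.7 (SD, n = 5) and 278 ± 23.6 (SD, n = 3).
*Ngfr* fell 2.63-fold in *RBS* lesions relative to control eyes (log2 difference -1.40, SE 0.23, adjusted *p* = 0.000980; exact permutation *p* = 0.0159). Relative to Shh-MBs it was 2.72-fold lower (log2 difference -1.44, SE 0.27, adjusted *p* = 0.00184; exact permutation *p* = 0.0179). Both calls held under each of the other scalings, with differences of -1.47 to -1.68 against control eyes and -1.83 to -2.29 against Shh-MBs. Between Shh-MBs and control eyes the log2 difference was 0.05 (95% interval -0.22 to 0.31, adjusted *p* = 0.798). There the scaling decided the call, since *Ngfr* passed as higher in Shh-MBs by 0.71 after median centring (adjusted *p* = 0.00784), 0.42 after quantile normalization (adjusted *p* = 0.0136) and 0.36 with totals taken without the 3 most abundant genes (adjusted *p* = 0.0288). Under these scalings the median difference of all genes was 0.44, 0.17 and 0.066 in the same order.

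*Ntrk2*, the gene of TrkB, was higher in both lesions and tumors than in control eyes. Its signal was 246, 207, 215 and 287 in control eyes, 407, 501, 591, 548 and 531 in *RBS* lesions and 635, 382 and 429 in Shh-MBs. Every lesion and tumor exceeded every control eye, and the *RBS* lesions lay within the range of the Shh-MBs. Means were 239 ± 36.0 (SD, n = 4), 516 ± 68.7 (SD, n = 5) and 482 ± 135 (SD, n = 3).
*Ntrk2* rose 2.16-fold in *RBS* lesions over control eyes (log2 difference 1.11, SE 0.14, adjusted *p* = 0.000191; exact permutation *p* = 0.00794). Shh-MBs exceeded control eyes 1.98-fold (log2 difference 0.99, SE 0.21, adjusted *p* = 0.00914; exact permutation *p* = 0.0286). Neither call was lost under another scaling, but other tests ended both, as given below. *RBS* lesions and Shh-MBs were not told apart (log2 difference 0.12, 95% interval -0.33 to 0.57, adjusted *p* = 0.601), although median centring gave -0.72 (adjusted *p* = 0.00420). The median difference of all genes was then -0.32. TrkB is made as a full-length kinase and as truncated forms without a kinase domain, and the part of the transcript read by the probe is not given in the sources used here, so the forms were not separated.

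*Ntrk2* and *Ngfr* moved apart in the *RBS* lesions. The ratio of *Ntrk2* to *Ngfr* signal, which a factor applied to a whole sample does not change, was 0.933, 0.820, 0.838 and 0.945 in control eyes. It was 2.48, 5.62, 4.95, 5.98 and 8.00 in *RBS* lesions and 2.40, 1.25 and 1.63 in Shh-MBs. The groups did not overlap, and the lowest *RBS* lesion, *RBS* 1, came close to Shh-MB 1. As probes differ in efficiency, the size of the ratio has no meaning of its own and only its course over the samples does. Mean ratios were 0.884 ± 0.0642 (SD, n = 4), 5.41 ± 2.00 (SD, n = 5) and 1.76 ± 0.586 (SD, n = 3). The ratio was formed after both genes had been seen and was not tested.

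**Figure D2:**
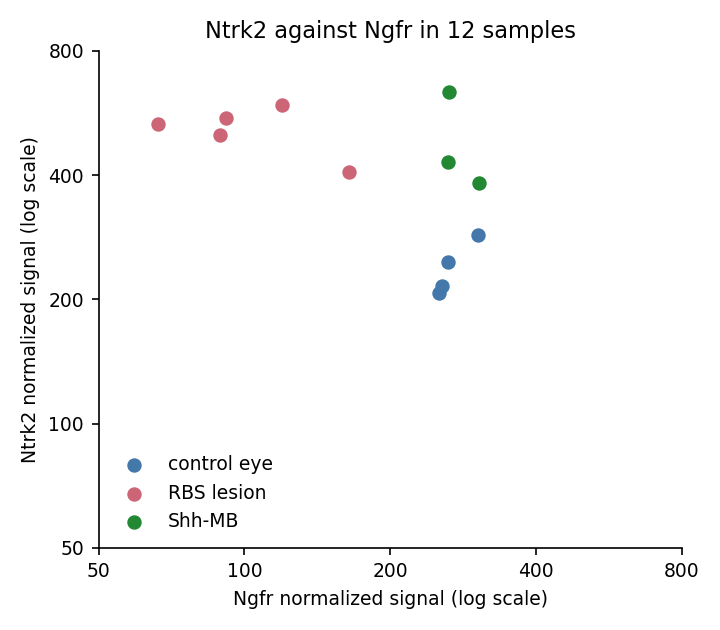
Normalized signal of *Ntrk2* against that of *Ngfr*, both on log axes, with 1 point per sample and colors for the groups. *RBS* lesions (ratios 2.48 to 8.00) form the upper left, Shh-MBs (1.25 to 2.40) the upper right and control eyes (0.820 to 0.945) the lower right.

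*Ret*, the receptor of the GDNF family, was lower in lesions and tumors than in control eyes. Its signal was 54.5, 58.1, 63.0 and 51.1 in control eyes, 30.0, 24.4, 21.5, 23.0 and 23.4 in *RBS* lesions and 31.6, 13.7 and 10.8 in Shh-MBs. The control eyes stood clear of all other samples, and Shh-MB 1 lay above all *RBS* lesions while Shh-MBs 2 and 3 lay below them. Means were 56.7 ± 5.09 (SD, n = 4), 24.4 ± 3.27 (SD, n = 5) and 18.7 ± 11.3 (SD, n = 3), the last falling to 12.2 without Shh-MB 1.
Of the 6 genes, *Ret* had the smallest *p* in the comparison with control eyes, where it was 2.27-fold lower in *RBS* lesions (log2 difference -1.19, SE 0.11, adjusted *p* = 4.58e-05; exact permutation *p* = 0.00794). Shh-MBs had 3.23-fold less than control eyes (log2 difference -1.69, SE 0.34, adjusted *p* = 0.00718; exact permutation *p* = 0.0286), a call that was lost after quantile normalization (-0.43, adjusted *p* = 0.241). It was also lost under other tests and with the replicate number as a block, as given below. *RBS* lesions and Shh-MBs differed by 0.51 (95% interval -0.21 to 1.22, adjusted *p* = 0.191). Without Shh-MB 1 this difference was 0.94 and passed (adjusted *p* = 0.00157), and after quantile normalization it was -1.03 (adjusted *p* = 0.00448), so its direction rests on the scaling.

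*Alk* was detected well only in *RBS* lesions. Control eyes had a signal of 18.1, 4.42, 11.0 and 2.17, *RBS* lesions 36.6, 39.0, 47.1, 60.3 and 42.6, and Shh-MBs 10.3, 6.16 and 8.27. Every *RBS* lesion lay above every other sample, of which control eye 1 was the highest, and the control eyes were spread over a wider relative range than any other group of the 6 genes. Means were 8.92 ± 7.19 (SD, n = 4), 45.1 ± 9.39 (SD, n = 5) and 8.26 ± 2.09 (SD, n = 3), and the low levels rested on 2.1 to 15.5 counts above background in control eyes and 6.6 to 9.7 in Shh-MBs. Without control eye 1 the mean of the control eyes was 5.85.
*Alk* rose 5.73-fold in *RBS* lesions over control eyes on the scale of log2 of the signal plus 1 (log2 difference 2.52, SE 0.47, adjusted *p* = 0.00186; exact permutation *p* = 0.00794), which understates changes of low genes. It was 4.99-fold higher in *RBS* lesions than in Shh-MBs (log2 difference 2.32, SE 0.21, adjusted *p* = 3.59e-05; exact permutation *p* = 0.0179). Between Shh-MBs and control eyes the difference was 0.20 with a wide interval (95% interval -1.28 to 1.68, adjusted *p* = 0.851), and it was 0.87 after median centring and 1.35 after quantile normalization (adjusted *p* = 0.239 and 0.110). With all values under 20 set to 20, *Alk* was still higher in *RBS* lesions by 1.15 against either group (adjusted *p* = 0.000345 against control eyes and 0.000968 against Shh-MBs), and quantile normalization reduced the difference from Shh-MBs to 0.77 (adjusted *p* = 0.00601). *Alk* was the only one of the 6 whose mean log2 value over all samples was under log2 of 20, and the other 5 passed that filter.

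**Figure D3:**
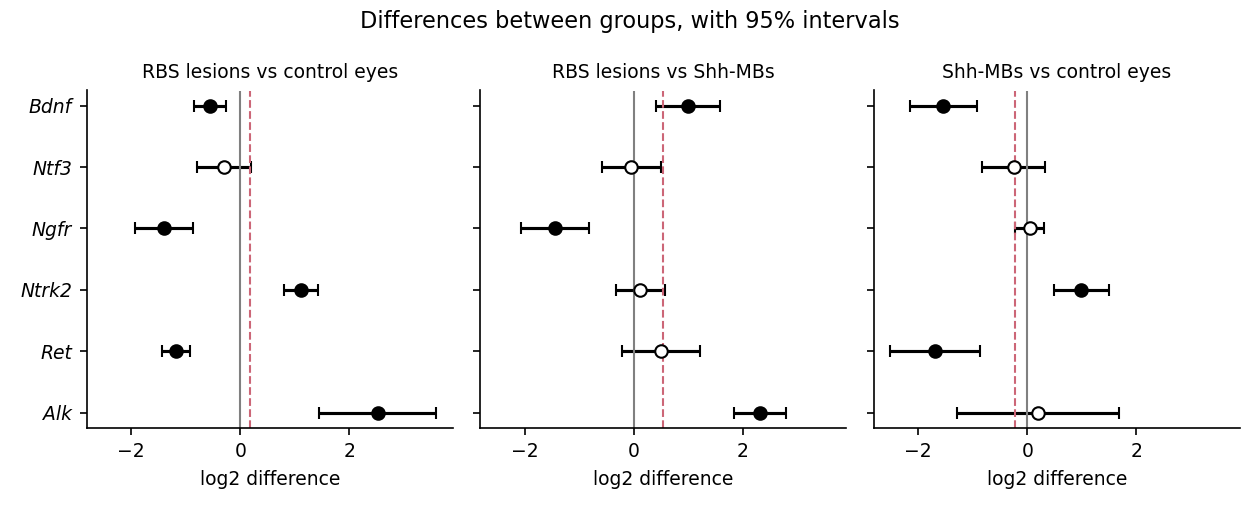
Differences of the 6 genes between groups on the log2 scale, with 95% intervals from limma, for each of 3 comparisons (first group minus second). Filled points passed at an adjusted *p* under 0.05, and the dashed line marks the median of all 770 genes, which lies at 0.17, 0.53 and -0.22.

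The groups of each gene were put in order of their level on the scale of the deposited values. Every pair of neighbours then passed the test for *Bdnf* and none did for *Ntf3*. Other scalings lost or turned the *Bdnf* step between *RBS* lesions and Shh-MBs, and quantile normalization made *Ntf3* pass in both comparisons with Shh-MBs. *RBS* lesions stood below the other groups for *Ngfr* and above them for *Alk*, with control eyes and Shh-MBs not told apart. For *Ngfr* the latter held only on the deposited scale, as Shh-MBs passed as higher than control eyes under each of the other scalings. Control eyes stood below the others for *Ntrk2* and above them for *Ret*, with *RBS* lesions and Shh-MBs not told apart on that scale. Median centring made *Ntrk2* pass as lower in *RBS* lesions than in Shh-MBs. Quantile normalization made *Ret* pass as lower there and lost its call between Shh-MBs and control eyes. With the highest Shh-MB left out, *Ret* passed in the other direction, as higher in *RBS* lesions than in Shh-MBs.

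Summed markers of several cell types also differed between groups, and their part in the differences of the 6 genes was not tested. In *RBS* lesions 8 of the 9 neuronal markers exceeded control eyes and 6 exceeded Shh-MBs by the test, where 33.0% and 48.1% of all genes did. The 4 neural crest and Schwann cell markers on the panel, of 11 listed, summed to 155 to 187 in control eyes, 193 to 266 in the 5 lesions and 100 to 205 in the tumors. Of these *Kit* had the largest means, 124, 174 and 95.1 in the same order, and those of *Fgf5* were 9.37, 3.86 and 26.0. Against control eyes 2 of the 4 were higher in the lesions by the test and 0 were lower. Of all genes 33.0% were higher and 18.2% lower. Of 10 endothelial markers listed, 3 were on the panel and summed to 1789 to 2259, 695 to 988 and 129 to 235 in the same order. Of these 3, 1 was lower in *RBS* lesions against control eyes and none was higher, and their median log2 difference was 0.12. The 10 mesenchymal markers, of 17 listed, summed to 26439 to 59492, 21227 to 38403 and 1749 to 2416, and the 11 blood and immune markers, of 21 listed, to 153 to 218, 269 to 316 and 139 to 264. Against control eyes 3 of these 11 were higher in the lesions, with a median log2 difference of 0.057, and of the 10 mesenchymal markers 1 was higher and 3 were lower, where 33.0% of all genes were higher and 18.2% lower. Among the immune markers *Csf2* and *Ccr7* were at the lowest value in all 12 samples.

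Signaling genes downstream of the receptors that passed between *RBS* lesions and control eyes were nearly all higher in the lesions. Over 4 lists with 57 genes on the panel, 36 were higher and 1 was lower, against 33.0% and 18.2% of all genes. The median difference of the 57 genes was 0.40, that of all genes 0.17. Median centring left 20 higher and 2 lower and quantile normalization 21 and 3, with medians of 0.22 and 0.22 against -0.0075 and 0.0033 for all genes. Of all 770 genes these scalings called 177 higher and 177 lower, and 187 and 179. Fewer genes of these lists passed with the replicate number as a block (26 higher, 1 lower; of all genes 192 and 109) and with a test for unequal variances and step-down Bonferroni adjustment (6 higher, 0 lower; of all genes 41 and 31). Without further scaling, in the list of adaptors and other signaling genes close to the receptor kinases, which includes *Sos1* and *Sos2*, 6 of 13 were higher and 1 was lower. In the ERK branch 9 of 11, in the PI3K and Akt branch 10 of 13 and in the p75 branch 11 of 20 were higher and none was lower.

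The largest of these differences was that of *Shc3*, a neuronal adaptor of Trk receptors, with a signal of 67.4, 74.4, 66.2 and 56.3 in control eyes and 296, 398, 354, 377 and 464 in *RBS* lesions. The groups were far apart (log2 difference 2.49, SE 0.14, adjusted *p* = 3.16e-06). *Sos1*, the exchange factor that activates Ras, rose from 251 ± 15.6 (SD, n = 4) to 481 ± 29.5 (SD, n = 5), a log2 difference of 0.93 (adjusted *p* = 3.29e-05). *Pik3r3*, a regulatory subunit of PI3K, differed by 1.07 (adjusted *p* = 0.000164). In the ERK branch, the kinase *Mapk3* was higher by 0.53 (adjusted *p* = 0.00282). In the p75 branch the JNK kinases *Mapk10* and *Mapk8* were higher by 2.23 (adjusted *p* = 4.01e-06) and 0.77 (adjusted *p* = 0.000164). *Mapk10* is also one of the neuronal markers.

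Against Shh-MBs, 37 of the 57 genes were higher in *RBS* lesions and 4 were lower, where 48.1% and 12.7% of all genes were, with a median difference of 0.60 against 0.53 for all genes. The direction of this list followed the scaling, since median centring gave 7 higher and 23 lower and quantile normalization 18 and 10, and of all 770 genes they called 181 and 319, and 204 and 234. *Shc3* (1.97, adjusted *p* = 6.24e-05), the ubiquitin ligase *Cbl* (1.59, adjusted *p* = 1.67e-05) and the PI3K subunits *Pik3r1* (2.30, adjusted *p* = 9.42e-06) and *Pik3cd* (1.46, adjusted *p* = 0.000360) were among the higher genes. *Hras* differed by 0.88 (adjusted *p* = 0.000276), but only by 0.036 after median centring. *Map3k5* of the p75 branch differed by 1.70 (adjusted *p* = 0.00197), and it and *Pik3cd* did not pass after quantile normalization. *Irak3* of the same branch also passed, but 2 of 3 Shh-MBs were at their lowest value and all *RBS* lesions lay between 7.80 and 16.3, so with values under 20 set to 20 no difference was left and no fold is given. The 4 lower genes were *Map3k1*, a kinase upstream of JNK (-3.40, adjusted *p* = 3.62e-06), the tumor suppressor *Trp53* (-1.03, adjusted *p* = 0.000157), and the adaptors *Shc2* (-0.70, adjusted *p* = 0.00517) and *Irs1* (-0.60, adjusted *p* = 0.0158). *Map3k1* had a signal of 1696, 2027 and 2420 in Shh-MBs and of 160 to 265 in all eyes and lesions. The test for unequal variances with Benjamini-Hochberg adjustment did not call *Map3k5*, *Shc2* and *Irak3* (adjusted *p* = 0.112, 0.0750 and 0.0666).

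In Shh-MBs against control eyes, 5 of the 57 genes were higher and 15 lower, where 9.61% and 31.4% of all genes were. Median centring turned this to 34 higher and 3 lower and quantile normalization to 23 and 5, and the counts over all 770 genes turned to 311 and 139, and 221 and 147. Lower were *Shc1*, the general Shc adaptor (-2.12, adjusted *p* = 0.000185), *Cbl* (-0.91, adjusted *p* = 0.00220), *Pik3r1* (-1.93, adjusted *p* = 0.000235) and *Pik3cd* (-1.08, adjusted *p* = 0.00134). *Map2k1* and *Hras* of the ERK branch differed by -0.82 (adjusted *p* = 0.00860) and -0.46 (adjusted *p* = 0.0213). *Nfkb1* of the p75 branch differed by -0.54 (adjusted *p* = 0.0390). *Irak3* passed as lower too, near background, and with values under 20 set to 20 it differed by -0.096 (adjusted *p* = 0.602). Higher were *Map3k1* (3.11, adjusted *p* = 1.99e-05), *Mapk10* (1.10, adjusted *p* = 0.00324), *Shc2* (0.98, adjusted *p* = 0.00443) and the kinase *Rps6ka5* (0.47, adjusted *p* = 0.0183). Of the 8 lower genes named here, only *Shc1* and *Pik3r1* passed as lower under every scaling that was run. With the replicate number as a block in limma, *Rps6ka5*, *Hras* and *Nfkb1* did not pass (the last 2 with adjusted *p* = 0.140 and 0.144). The test for unequal variances with Benjamini-Hochberg adjustment did not call *Shc2*, *Rps6ka5*, *Map2k1*, *Hras*, *Nfkb1* and *Irak3*.

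**Figure D4:**
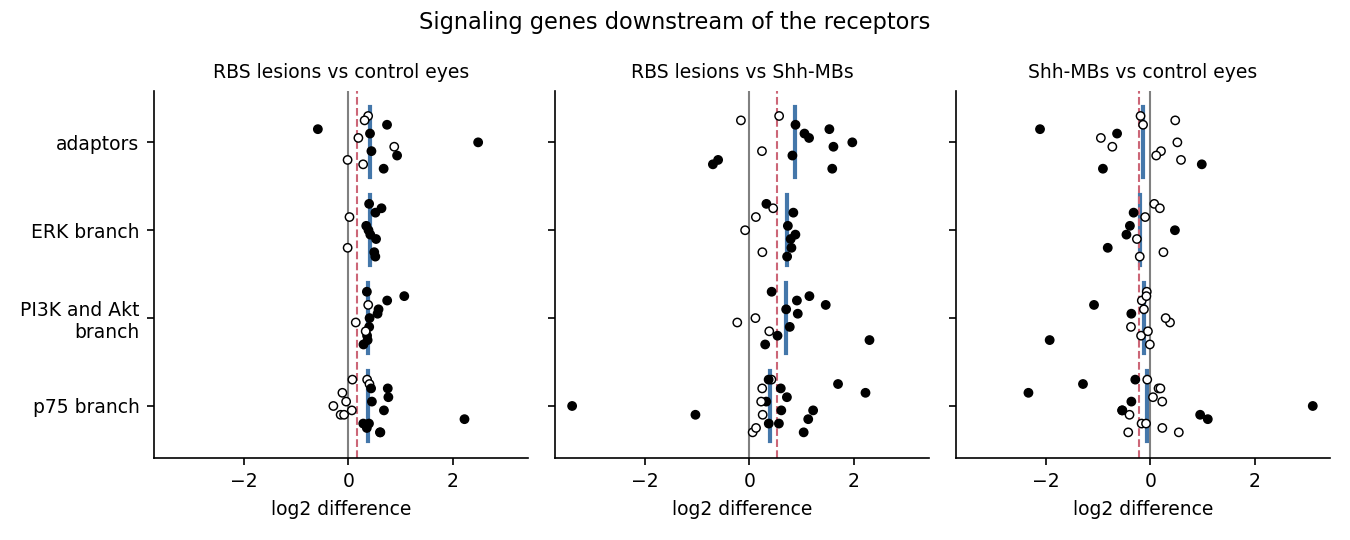
Differences on the log2 scale of 4 lists of downstream signaling genes (points, filled where the adjusted *p* was under 0.05), with the median of each list as a solid line and that of all 770 genes as a dashed line. Against control eyes, 36 of the 57 genes were higher in *RBS* lesions.

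For each of the 6 genes, the 2 genes with the most similar course over the 12 samples were taken, by the root mean square difference between log2 profiles centred on their own means. *Ngfr* was closest to *Ccna2*, the cyclin A2 gene of S and G2 phase (0.233), and to the histone gene *Hist1h3b* (0.257), while the median over the 568 genes searched was 1.04. *Ccna2* had mean signals of 1863, 733 and 2170 in control eyes, *RBS* lesions and Shh-MBs. *Bdnf* was closest to the Rac exchange factor *Tiam1* (0.218) and to *Fbxw7*, a ubiquitin ligase subunit (0.249), against a median of 0.735. *Ret* was closest to *Hmga1*, a chromatin protein gene of proliferating cells (0.274), and again to *Fbxw7* (0.288), against a median of 0.880.

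*Ntrk2* was closest to *Gng12*, a G protein subunit gene (0.238), and to *Mapk8ip2*, a JNK scaffold gene of neurons (0.259), against a median of 0.712. *Ntf3* was closest to the growth factor gene *Vegfb* (0.259) and the general transcription factor gene *Sp1* (0.275), against a median of 0.590. *Alk* was closest to *Grin2b*, an NMDA receptor subunit gene and a neuronal marker (0.594), and to *Shc3* (0.599), against a median of 1.31 over 569 genes. *Grin2b* had mean signals of 31.4 in control eyes, 287 in *RBS* lesions and 58.7 in Shh-MBs. Likeness was taken over all samples together and therefore mostly reflects the differences between groups.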

How the data were processed

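RNA was extracted from fresh frozen tissue and counted on the nCounter Mouse PanCancer Pathways panel, which reads 770 genes by hybridized barcoded probes, with no amplification step. The authors normalized the counts with nSolver and nCounter Advanced Analysis, and the deposited values are a normalized signal on a linear scale. The values themselves show that a background level was subtracted and that each sample was multiplied by 1 factor. The background setting and reference genes are not given in the sources used here. Dividing the signal by the spacing of the low values gave counts above background, between 335392 and 716684 per sample. Genes without signal share the lowest value of a sample (1.00 to 1.64).

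Groups were compared in pairs with limma 3.58.1 in R 4.3.3 on log2(signal + 1), two-sided, with Benjamini-Hochberg adjustment over all 770 genes, a threshold of 0.05 and no filter. This replaces the study's pairwise test with unequal variances, which was kept as an alternative without its permutations. Folds are 2 to the power of the log2 difference. Exact two-sided permutation tests used every assignment of the samples to groups of these sizes. Samples are separate animals, and litters are not given in the sources used here. The 6 genes and all lists were chosen with earlier results of these data known. Genes of the lists were named by a rule, which took up to 2 genes with the largest rise and 2 with the largest fall per list and comparison, among those past the threshold without overlap, and each gene's 2 nearest profiles among genes with a mean log2 of at least log2 of 20. Some genes taken by this rule are not reported here. Promoter sequences came from RefSeq tables, and plots were made in Python 3.11.15 (matplotlib 3.10.9). Alternatives were other tests, scalings, pseudocounts and filters, a replicate block and leaving out each sample.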

Additional observations from a re-analysis of the deposited data

How the results depend on the processing

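Against control eyes, the direction of all 6 genes in *RBS* lesions and the 5 calls held under every scaling, pseudocount and left-out sample that was run, and the low-value filter kept the other 4 calls but left *Alk* out. Only a test for unequal variances with step-down Bonferroni adjustment, as the study used but with no permutations, ended calls there, calling *Ret* (1 of 6 genes, 72 of 770) and no longer *Bdnf* (-0.55), *Ngfr* (-1.40), *Ntrk2* (1.11) and *Alk* (2.52), whose adjusted *p* was 0.0985 to 1. The same test left 80 genes and 0 of the 6 for *RBS* lesions against Shh-MBs (*Bdnf* 0.99, *Ngfr* -1.44, *Alk* 2.32) and 36 genes and 0 of the 6 for Shh-MBs against control eyes (*Bdnf* -1.54, *Ntrk2* 0.99, *Ret* -1.69), where 445 and 333 genes, with 2 of the 6 in each, had an unadjusted *p* under 0.05. With Benjamini-Hochberg adjustment it lost *Bdnf* between *RBS* lesions and Shh-MBs (0.99, adjusted *p* = 0.129, with 380 of 770 genes called) and all 3 calls of Shh-MBs against control eyes (0 of 6 with 217 of 770, *Bdnf* -1.54, *Ntrk2* 0.99, *Ret* -1.69). The exact permutation test with that adjustment called 0 genes and 0 of the 6 in the latter comparison (*Bdnf* -1.54, *Ntrk2* 0.99 and *Ret* -1.69, each with adjusted *p* = 0.0703). There 3 against 4 samples allow no *p* under 0.0286, and 313 genes with 3 of the 6 had an unadjusted *p* under 0.05.

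Comparisons with Shh-MBs depended on scaling. Median centring moved the median difference of all genes from 0.53 to -0.32 for *RBS* lesions against Shh-MBs. For Shh-MBs against control eyes it moved from -0.22 to 0.44. Quantile normalization took these medians to -0.097 and 0.17, and totals without the 3 most abundant genes to 0.18 and 0.066. For *RBS* lesions against Shh-MBs, median centring gave *Bdnf* 0.14, *Ntf3* -0.89, *Ntrk2* -0.72 and *Ret* -0.34, quantile normalization gave *Bdnf* -0.52, *Ntf3* -1.20, *Ntrk2* -0.44 and *Ret* -1.03 with 5 of 6 genes and 438 of all 770 called, and totals without the 3 most abundant genes gave *Bdnf* 0.62 (no longer called, with 2 of 6 genes and 435 of 770 left) and *Ntrk2* -0.26. For Shh-MBs against control eyes the same scalings gave *Ntf3* 0.42 and *Ngfr* 0.71, then *Bdnf* -0.26, *Ntf3* 0.65 (now called), *Ngfr* 0.42 and *Ret* -0.43, then *Ntf3* 0.056 and *Ngfr* 0.36. The share of higher genes among all calls moved with them, from 64.5% to 50% (median centring) for *RBS* lesions against control eyes, from 79.1% to 36.2% against Shh-MBs, and from 23.4% to 69.1% for Shh-MBs against control eyes. The cause was not tested.

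Replicate numbers did not pair the samples, as correlations of same-numbered deviations were -0.148 to 0.188. With the replicate number as a block, *Ret* in Shh-MBs against control eyes was -1.74 (adjusted *p* = 0.0536) and *Alk* -0.24, and no other call of the 6 genes changed. Leaving out 1 sample at a time, differences between *RBS* lesions and Shh-MBs ranged from -0.22 to 0.10 for *Ntf3*, -0.028 to 0.34 for *Ntrk2* and 0.21 to 0.94 for *Ret*, the last called without Shh-MB 1. Between Shh-MBs and control eyes they ranged from -0.022 to 0.11 for *Ngfr* and -0.24 to 0.62 for *Alk*. All other calls of the 6 genes held without any 1 sample. Depth limits *Alk*, whose low levels rest on few counts. Of the 57 signaling genes, the test with step-down Bonferroni adjustment called 4 higher and 2 lower for *RBS* lesions against Shh-MBs (56 and 24 of all genes) and 0 for Shh-MBs against control eyes (7 and 29 of all genes), and the block called 29 and 4 (323 and 84), then 4 and 7 (51 and 179). The setting of values under 20 to 20 leaves no value for *Alk* between Shh-MBs and control eyes.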
